A study of Mus musculus with 14 samples.

Results

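RNA sequencing of bone marrow cells was used to follow 9 genes of the erythroid lineage out of the 55487 genes counted in each library. The genes were chosen by name, with earlier results of these data known, and all 9 were found. They were the beta globins Hbb-bs and Hbb-bt, the membrane proteins Rhag, Slc4a1 and Ermap, and the erythropoietin receptor Epor. The others were the carbonic anhydrases Car1 and Car2 and the skeleton protein Add2. The main samples were LSK cells (Lin-Sca1+c-kit+, the fraction that holds the stem cells) and MP(LK) cells (the c-kit+ myeloid progenitors, called LK cells from here on). They came from C57BL/6 mice that had been irradiated and transplanted with marrow of Mx1Cre;Jak2VF/+ donors, so that every LSK and LK sample, controls included, carried a heterozygous Jak2V617F allele switched on by a pI-pC-inducible Cre that is not limited to blood cells. The recipients received intraperitoneal PBS or IL-1β, 3 doses per week for 16 weeks, and the methods give the dose as 0.5 µg where the labels print it in g. Each population had 3 PBS libraries and 2 IL-1β libraries. For comparison there were 2 PBS and 2 IL-1β libraries of MSC (mesenchymal stromal cells), grown for 21 days from wild-type C57BL/6 marrow and then exposed for 72 h to PBS or to 5 ng/ml IL-1β. The age of the animals was not given in the labels.

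Red cells form from progenitors that first express the erythropoietin receptor and then, under the factors GATA1 and KLF1, fill with hemoglobin and build a membrane held to a spectrin and actin skeleton. JAK2 transmits the signal of the erythropoietin receptor, and its V617F form keeps that signal on, which is why the mutation is known for an excess of red cells. Hemoglobin carries oxygen, whereas carbonic anhydrase and the anion exchanger encoded by Slc4a1 together move carbon dioxide as bicarbonate. The marrow was depleted of lineage-positive cells before the sort, a step that takes out most late erythroblasts, so the libraries sampled the early part of this lineage.

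The sequences shown first are those on which the reading of the counts depends. Hbb-bs (ENSMUSG00000052305, GRCm38 chromosome 7, 103826534 to 103828096) and Hbb-bt (ENSMUSG00000073940, chromosome 7, 103812524 to 103813996) are neighbouring copies on the minus strand. Their coding sequences are both 444 bases long in the GENCODE transcripts and differ at 1 base (99.8% identity), with a shared run of 416 bases. Bases 328 to 417 of each coding sequence are given below, with the differing base in capitals.
Hbb-bs: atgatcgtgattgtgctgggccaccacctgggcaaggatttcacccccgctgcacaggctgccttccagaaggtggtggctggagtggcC
Hbb-bt: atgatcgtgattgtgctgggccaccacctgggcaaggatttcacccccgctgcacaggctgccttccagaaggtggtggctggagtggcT
A read pair that lies within the coding sequence can therefore seldom be placed on 1 of these genes, and the split of beta globin reads between them is uncertain.

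Promoters are shown for Epor, Ermap and Add2, which were lower with IL-1β in LK cells, and for Rhag, which did not pass the test there. The 150 bases shown are from GRCm38.p6, written 5′ to 3′ on the strand of the gene. They end before the RefSeq start or before the start of the counted gene, whichever lies farther upstream. The stretches of Ermap and Rhag therefore end 16 and 23 bases short of the RefSeq start. Capitals mark the letters searched on both strands: A or T followed by GATAA or by GATAG (GATA letters), and CACCC, the core of sequences bound by KLF factors.
Epor, chr9:21963577-21963726, minus strand: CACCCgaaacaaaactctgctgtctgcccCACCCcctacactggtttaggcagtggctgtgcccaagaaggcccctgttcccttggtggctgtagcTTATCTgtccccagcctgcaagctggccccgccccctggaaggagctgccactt
Ermap, chr4:119190012-119190161, minus strand: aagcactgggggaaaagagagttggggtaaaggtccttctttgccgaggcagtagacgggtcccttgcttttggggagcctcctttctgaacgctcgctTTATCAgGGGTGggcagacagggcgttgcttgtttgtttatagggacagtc
Add2, chr6:86028531-86028680, plus strand: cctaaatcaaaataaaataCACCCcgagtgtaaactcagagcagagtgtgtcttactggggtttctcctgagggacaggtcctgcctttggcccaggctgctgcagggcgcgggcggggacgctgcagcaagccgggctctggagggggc
Rhag, chr17:40810976-40811125, plus strand: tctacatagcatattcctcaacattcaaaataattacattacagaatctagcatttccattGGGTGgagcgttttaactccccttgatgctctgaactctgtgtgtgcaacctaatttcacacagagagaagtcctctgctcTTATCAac
Over 250 bases before the RefSeq start, GATA letters were present in 5 of the 6 erythroid genes that the promoter table holds, and CACCC in 6 of 6. Of the 32851 promoters in the table, 26.5% held the GATA letters, 52.0% held CACCC and 11.8% held both. Hbb-bt was the gene without GATA letters, and those of Add2 begin 234 bases before its start, upstream of the stretch shown. Slc4a1, Car1 and Car2 were not in that table. These matches are descriptions of sequence and were not tested for binding.

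The LSK and LK libraries held 4393233 to 18544346 counted read pairs, with 4393233 to 8641124 in the IL-1β libraries and 12172400 to 18544346 in the PBS libraries, so that sequencing depth cannot be told apart from treatment. The sort was visible in the transcripts. Levels are given as CPM, scaled read counts divided by the TMM-adjusted library size. The TMM factors were shared by the LSK and LK libraries and computed apart for MSC, so MSC levels are not on exactly the same scale. Ly6a, which encodes Sca1, was at 14.8 to 41.7 CPM in LSK and at 0.258 to 1.99 CPM in LK libraries. Col1a1 was at 406 to 1311 CPM in MSC, but the macrophage gene Csf1r was at 683 to 2268 CPM in the same cultures and the stromal marker Lepr at no more than 0.530 CPM. Because these are bulk samples, fewer erythroid cells and less RNA per erythroid cell cannot be told apart at any result that follows.

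The erythroid genes were expressed mainly in LK cells. Together they took 0.422% to 0.539% of all counted read pairs in LK cells with PBS, against 0.0627% to 0.0791% in LSK cells with PBS. All 9 were called higher in LK than in LSK cells under PBS, where 12.4% of the 13839 genes tested were called higher. Calls were made by the quasi-likelihood test of edgeR where the adjusted p was under 0.05 and the log2 fold change exceeded 0.5 in either direction. The median log2 fold change of the 9 was 3.60, against -0.09 over all genes tested, and for 8 of 9 every LK library lay above every LSK library, as it did for 21.8% of all genes. In MSC no erythroid gene other than Epor had enough reads to be tested.

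**Figure D1:**
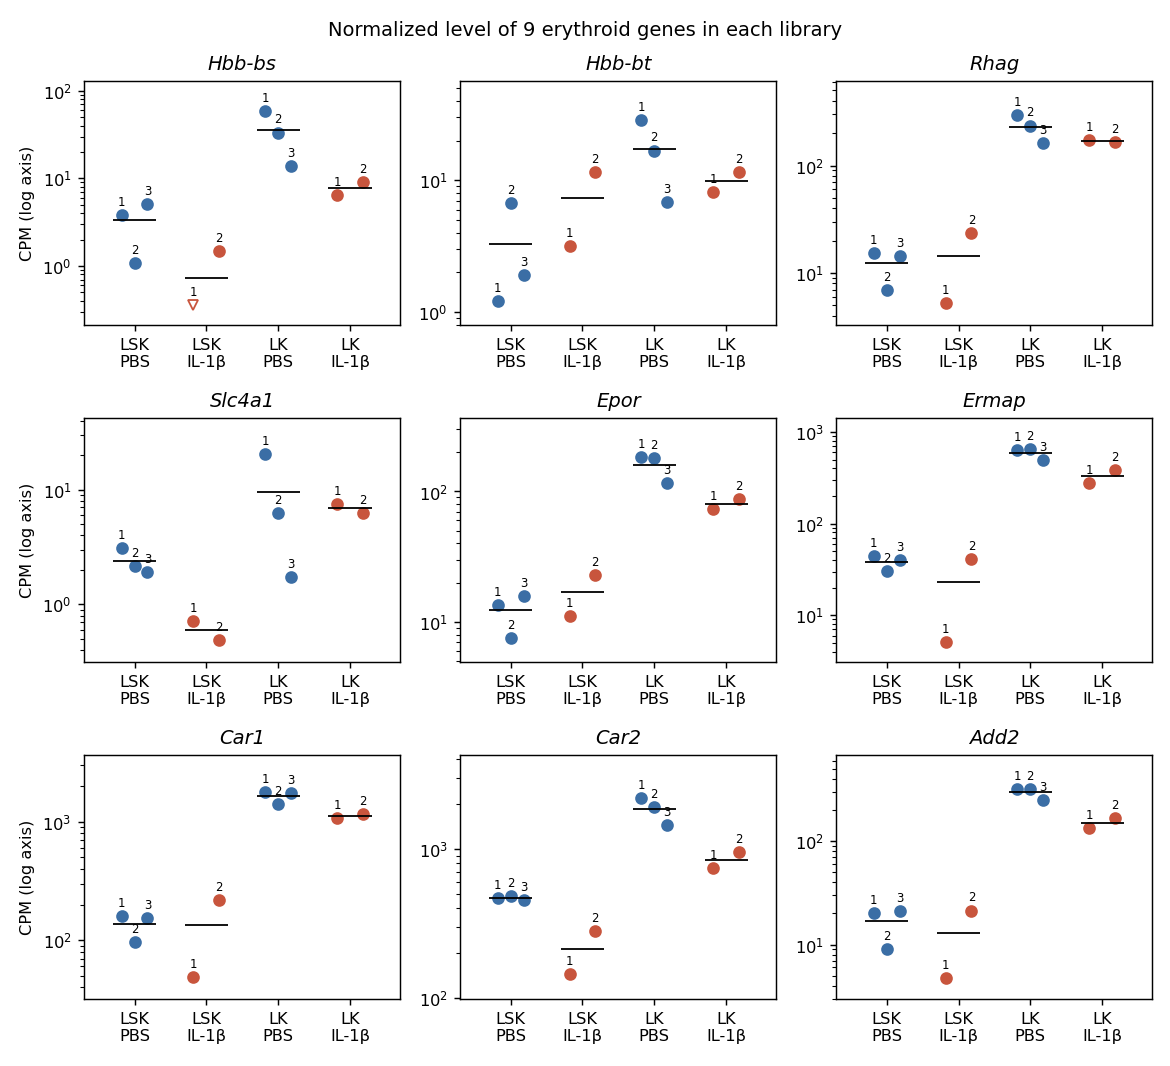
Level of each of the 9 erythroid genes in CPM on a log axis, for 3 PBS libraries (blue) and 2 IL-1β libraries (red) of LSK and of LK cells. Points are libraries numbered by replicate, bars are means, and the open triangle is a library with 0 counts drawn at its limit of 3 counts (0.355 CPM). The LK points lie above the LSK points for most genes, and IL-1β replicate 1 of LSK cells is the lowest LSK point for 6 of the 9 genes.

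Per length of transcript, the carbonic anhydrases stood far above the other erythroid genes. In LK cells with PBS, Car1 (chromosome 3, 14766216 to 14808368) was at 1326 ± 161 RPKM (CPM per kilobase of exons, SD, n = 3) and Car2 (chromosome 3, 14886273 to 14900770) at 762 ± 157 RPKM. Both genes encode cytosolic enzymes that interconvert carbon dioxide and bicarbonate. Next came Ermap at 112 ± 15.6 RPKM, Rhag at 98.7 ± 28.2 and Epor at 80.3 ± 18.6 RPKM, 3 neighbours in the order that differed by no more than their spread. Hbb-bs was at 45.9 ± 29.3, Add2 at 29.2 ± 4.02 and Hbb-bt at 24.7 ± 15.4 RPKM, which also overlapped. The beta globin values may be too low. They were divided by the full exon length, although read pairs that match both copies are left out by the counter's defaults. The place of the 2 globins in this order is therefore uncertain. Slc4a1 was the lowest, at 1.94 ± 2.01 RPKM. Car1 and Car2 together made up 69.8% to 75.2% of the erythroid gene CPM in LK libraries and 80.3% to 90.1% in LSK libraries. In LSK cells with PBS their order was the reverse, with Car2 at 193 ± 5.98 RPKM above Car1 at 109 ± 27.3 RPKM (SD, n = 3).

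The size of the step from LSK to LK cells differed among the genes. Under PBS it was widest for Rhag, which encodes a glycoprotein of the Rh complex (chromosome 17, 40811126 to 40840754). Rhag was at 15.4, 6.97 and 14.5 CPM in LSK replicates 1, 2 and 3 and at 294, 236 and 162 CPM in LK replicates 1, 2 and 3, a log2 fold change of 4.23 (SE 0.46, edgeR adjusted p = 7.7e-05). Every LK library lay above every LSK library. Add2, the beta subunit of adducin that joins spectrin to actin, followed with 20.2, 9.07 and 21.2 CPM in LSK and 321, 318 and 249 CPM in LK cells, a log2 fold change of 4.13 (SE 0.45, edgeR adjusted p = 6.9e-05). For Car2 the step was among the smallest, from 468, 482 and 453 CPM in LSK to 2189, 1914 and 1437 CPM in LK cells (1.98, SE 0.25, edgeR adjusted p = 0.000165). Car2 also varied least among the LSK PBS libraries, by 1.06 times between the highest and the lowest. For Ermap the log2 fold change was 3.96, for Epor 3.69, for Car1 3.60, for Hbb-bs 3.38 and for Hbb-bt 2.40. Slc4a1, whose product is the band 3 anion exchanger (chromosome 11, 102348824 to 102366203), was at 3.11, 2.17 and 1.92 CPM in LSK and 20.5, 6.24 and 1.72 CPM in LK cells. Its populations overlapped, since LK replicate 3 was below all LSK replicates, and its call (1.98, edgeR adjusted p = 0.044) was lost with the replicate number as a block (1.43, adjusted p = 0.0583). The Slc4a1 call was also lost in 9 of the 10 fits that left out 1 library, and without LK PBS replicate 1 its log2 fold change was 0.74. Hbb-bt was not called without LSK PBS replicate 1, LSK PBS replicate 3 or LK PBS replicate 1.

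Under IL-1β the LK cells again held more, with 6 of 9 genes called higher where 2.27% of all genes tested were. The 6 were Rhag, Epor, Ermap, Car1, Car2 and Add2, with log2 fold changes of 3.89 for Ermap, 3.64 for Rhag, 3.63 for Add2, 3.07 for Car1 and 2.28 for Epor, and the smallest for Car2 (213 against 848 CPM in the mean). Hbb-bs (3.82, edgeR adjusted p = 0.0821) and Slc4a1 (3.45, edgeR adjusted p = 0.0765) were not called, although their groups did not overlap, as for 8 of the 9 genes and 29.8% of all genes. For Hbb-bt, at 3.19 and 11.5 CPM in LSK and 8.11 and 11.6 CPM in LK cells, the libraries overlapped and the log2 fold change was 0.47 (edgeR adjusted p = 0.786). The count was 5 without LSK IL-1β replicate 1, where Epor was not called, and 4 without LK IL-1β replicate 2, where Epor and Ermap were not.

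**Figure D2:**
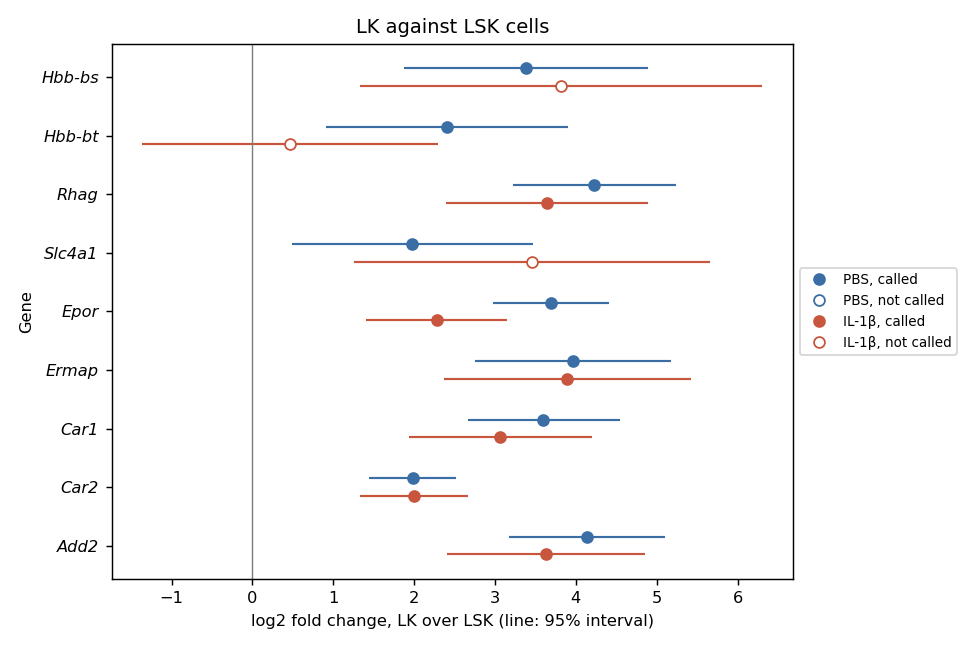
Log2 fold change of LK over LSK cells for the 9 erythroid genes under PBS (blue) and IL-1β (red), with lines for 95% intervals and filled points for called genes. The points lie between 0.47 and 4.23, and the lines of Hbb-bt under IL-1β cross 0.

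In LK cells the erythroid genes were lower with IL-1β. All 9 log2 fold changes were negative, where 52.9% of the 12835 genes tested were, with a median of -0.85 against -0.03 over all genes tested. Of the 9, 5 were called lower, where 2.57% of all genes tested were called lower, namely Epor, Ermap, Car1, Car2 and Add2. In 6 of 9, these and Hbb-bs, both IL-1β libraries lay below all PBS libraries, where 22.4% of all genes did. None was called higher. The share of read pairs on the 9 genes was 0.422% to 0.539% with PBS and 0.245% and 0.288% with IL-1β.

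Epor, the receptor through which erythropoietin acts (ENSMUSG00000006235, chromosome 9, 21958897 to 21963506), was at 183, 179 and 117 CPM in the PBS replicates 1, 2 and 3 and at 73.6 and 88.1 CPM in the IL-1β replicates. Its groups did not overlap, and its log2 fold change was -0.98 (SE 0.21, edgeR adjusted p = 0.0306). Ermap, an immunoglobulin-like protein of the erythroblast surface (ENSMUSG00000028644, chromosome 4, 119175457 to 119190011), was at 628, 652 and 498 CPM with PBS and at 277 and 380 CPM with IL-1β, with a log2 fold change of -0.85 (SE 0.17, edgeR adjusted p = 0.0213). PBS replicate 3 was the lowest control for both genes, and it still exceeded the IL-1β libraries.

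Car2 (ENSMUSG00000027562) had the largest fall among the called erythroid genes. It was at 2189, 1914 and 1437 CPM with PBS and at 746 and 950 CPM with IL-1β, for a log2 fold change of -1.12 (SE 0.20, edgeR adjusted p = 0.0135). Car1 (ENSMUSG00000027556), which lies close to Car2 on chromosome 3, was at 1790, 1424 and 1750 CPM with PBS and at 1066 and 1165 CPM with IL-1β. That is a log2 fold change of -0.57 (SE 0.13, edgeR adjusted p = 0.0319), the smallest of the 5. Add2 (ENSMUSG00000030000, chromosome 6, 86028681 to 86124409) was at 321, 318 and 249 CPM with PBS and at 134 and 168 CPM with IL-1β, with a log2 fold change of -0.97 (SE 0.15, edgeR adjusted p = 0.00828). In linear terms the 5 called genes were 1.48 to 2.18 times lower.

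The remaining 4 genes did not pass the test in LK cells. Hbb-bs was at 58.7, 33.3 and 13.8 CPM with PBS and at 6.38 and 9.01 CPM with IL-1β, without overlap, and its log2 fold change of -2.20 had an SE of 0.70 (edgeR adjusted p = 0.132). Hbb-bt was at 28.4, 16.8 and 6.82 CPM with PBS and at 8.11 and 11.6 CPM with IL-1β (-0.82, SE 0.59, edgeR adjusted p = 0.455). Counted as 1 gene, the beta globins had a log2 fold change of -1.59 (SE 0.70, edgeR adjusted p = 0.253). Rhag (ENSMUSG00000023926) was at 294, 236 and 162 CPM with PBS and at 172 and 167 CPM with IL-1β (-0.44, SE 0.24, edgeR adjusted p = 0.305), and PBS replicate 3 lay below both IL-1β libraries. Slc4a1 (ENSMUSG00000006574) spread 11.9 times between PBS replicates 1 and 3, at 20.5, 6.24 and 1.72 CPM, and was at 7.57 and 6.27 CPM with IL-1β (-0.44, SE 1.00, edgeR adjusted p = 0.831). The globins and Slc4a1, late genes of this lineage, were thus the ones with the widest spread among the controls, 4.17 to 11.9 times between the highest and the lowest, against at most 1.81 times for the other 6.

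**Figure D3:**
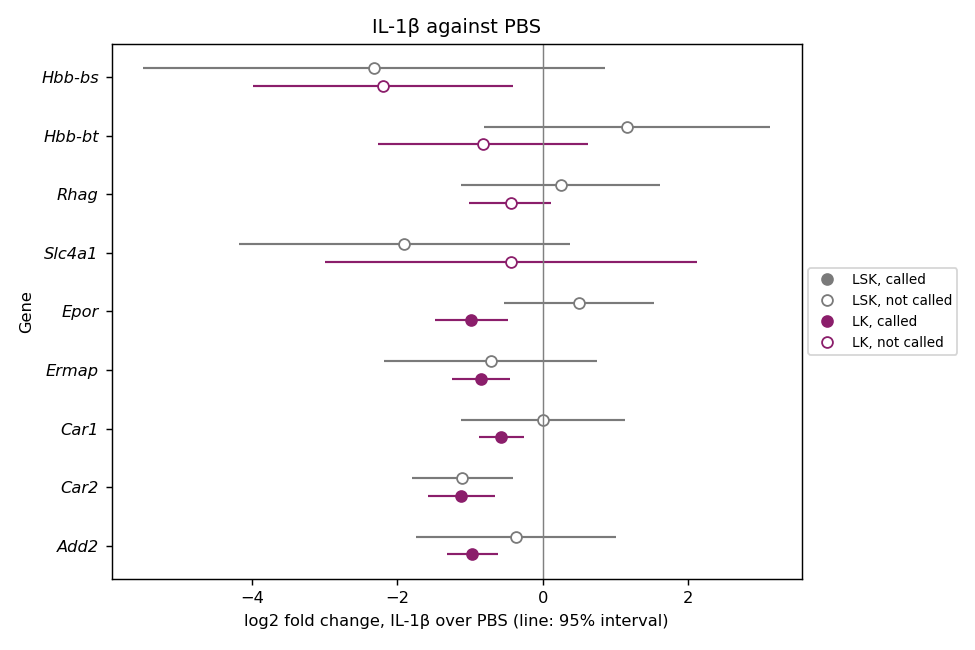
Log2 fold change of IL-1β over PBS for the 9 erythroid genes in LSK cells (grey) and LK cells (purple), with lines for 95% intervals and filled points for called genes. Each LK point is below 0 and 5 are filled, whereas the LSK points run from -2.32 to 1.16 with none filled.

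The LK calls rested on few libraries. Without IL-1β replicate 1 none of the 9 was called, without IL-1β replicate 2 only Ermap and Add2 were, without PBS replicate 1 only Car2 and Add2, and without PBS replicate 2 only Car1 and Add2, while without PBS replicate 3 all but Slc4a1 were called. A fit over the LSK and LK libraries together, which shares the wider spread of the LSK libraries (biological coefficient of variation 0.299, against 0.183 in LK alone), called only Car2, and DESeq2 called Hbb-bs in addition to the 5. The log2 fold changes of the 5 called genes stayed negative in all 16 alternatives, from -1.30 to -0.50. With every library thinned to the smallest total, and with normalization that left out the neutrophil genes, the same 5 genes were called.

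The Hbb-bt share of beta globin read pairs differed between treatments in LK cells although both genes were low. It was 32.6%, 33.5% and 33.1% with PBS (of 1091, 972 and 287 read pairs) and 56.0% and 56.2% with IL-1β (of 109 and 128). The 95% exact Clopper-Pearson intervals were 29.9% to 35.5%, 30.6% to 36.6% and 27.7% to 38.9% with PBS, and 46.1% to 65.5% and 47.2% to 65.0% with IL-1β. Both IL-1β values thus lay above all PBS values, by 23.0 percentage points in the mean, and the exact two-sided permutation test gave p = 0.2, the smallest value that 3 against 2 libraries allow. In LSK cells the share was 23.9%, 86.1% and 27.5% under PBS, while the IL-1β libraries had 100% and 88.7%, of 27 to 120 read pairs, and PBS replicate 2 lay with the IL-1β libraries (exact permutation p = 0.2). Because the coding sequences differ at 1 base, this share depends on how read pairs that match both copies were treated, and that was not tested. The intervals cover counting error only.

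**Figure D4:**
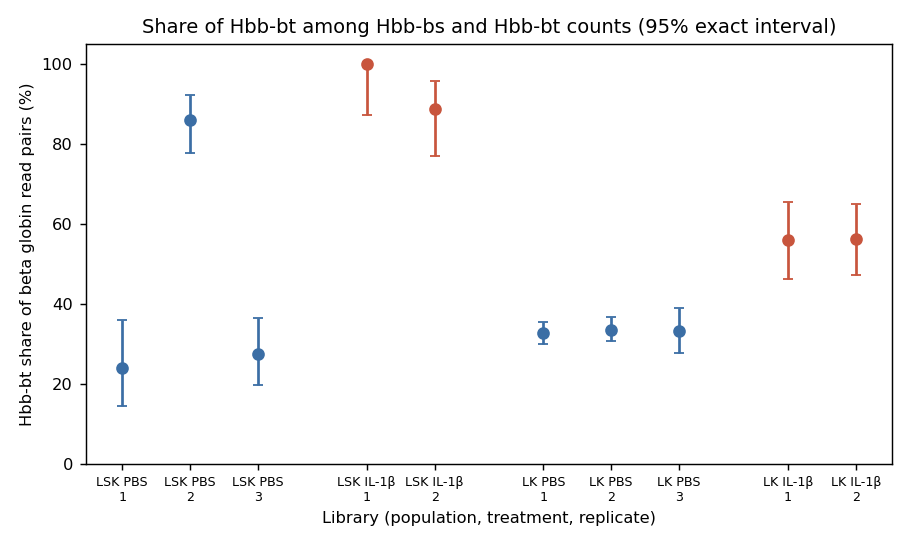
Percentage of beta globin read pairs (Hbb-bs plus Hbb-bt) assigned to Hbb-bt in each LSK and LK library, with 95% exact binomial intervals, PBS in blue and IL-1β in red. The 3 LK PBS libraries sit between 32.6% and 33.5%, the 2 LK IL-1β libraries at 56.0% and 56.2%, and the LSK libraries range from 23.9% to 100%.

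In LSK cells no erythroid gene was called with IL-1β by edgeR, where 0.312% of the 13132 genes tested were called lower and 0.320% higher. Car2 alone had an unadjusted p under 0.05, as 18.5% of all genes did, and DESeq2 called it alone. Of the 9, 5 log2 fold changes were negative, where 53.5% of all genes were, with a median of -0.37 against -0.06. For 2 genes, Car2 and Slc4a1, both IL-1β libraries lay below all PBS libraries, as for 22.8% of all genes. Car2 was at 468, 482 and 453 CPM with PBS and at 145 and 281 CPM with IL-1β, for a log2 fold change of -1.10 (SE 0.31, edgeR adjusted p = 0.127). This value is close to the -1.12 of LK cells, but the interval of the difference between the populations ran from -0.81 to 0.84. Slc4a1 was at 3.11, 2.17 and 1.92 CPM with PBS and at 0.710 and 0.490 CPM with IL-1β, on 6 and 2 read pairs (-1.90, SE 1.02, edgeR adjusted p = 0.34).

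The IL-1β LSK libraries stood apart from each other at nearly every erythroid gene. Replicate 1 was lower than replicate 2 for Ermap at 5.09 against 41.4 CPM, for Car1 at 49.2 against 219 CPM and for Rhag at 5.21 against 23.8 CPM. The corresponding PBS libraries held 30.1 to 44.3, 97.3 to 160 and 6.97 to 15.4 CPM, so that one IL-1β library lay below and the other within or above the controls. Epor was at 13.6, 7.52 and 15.7 CPM with PBS and at 11.1 and 23.0 CPM with IL-1β (0.50, SE 0.46, edgeR adjusted p = 0.588). Add2 was at 4.73 and 21.3 CPM with IL-1β, next to 20.2, 9.07 and 21.2 CPM with PBS. Hbb-bs had 0 counts in replicate 1, which allows up to 0.355 CPM at 3 counts, and 1.47 CPM in replicate 2, next to 3.86, 1.09 and 5.07 CPM with PBS. Hbb-bt, at 3.19 and 11.5 CPM with IL-1β and 1.21, 6.74 and 1.92 CPM with PBS, had the largest positive log2 fold change (1.16, SE 0.88, edgeR adjusted p = 0.505). For Slc4a1 the order could not be told, at 0.710 CPM in replicate 1 (6 counts) and 0.490 CPM in replicate 2 (2 counts). Replicate 2 was at its limit, which allows up to 0.735 CPM at 3 counts. The summed level of the 9 genes was 224 CPM in replicate 1 and 624 CPM in replicate 2, against 643 to 729 CPM with PBS. The median log2 fold change of the 9 was 0.37 without replicate 1 and -1.62 without replicate 2, so its direction depended on the library. The same libraries differed at the erythroid transcription factor gene Klf1 (16.2 against 59.1 CPM), which was chosen for this comparison after its values were seen. Klf1 does not stand for the other erythroid genes. Gata1 was at 59.0 against 88.0 CPM, and Tfrc went the other way, at 388 against 311 CPM. The 20 erythroid progenitor genes described below, these 3 among them, summed to 1290 CPM in replicate 1 and 1566 CPM in replicate 2.

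A test of the difference between the LK and LSK responses called none of the 9 genes, where 0.0289% of the 13839 genes tested were called. The differences, LK minus LSK, ran from -1.93 for Hbb-bt to 1.47 for Slc4a1 on the log2 scale. Epor alone had an unadjusted p under 0.05, as 14.2% of all genes did. Its log2 difference was -1.41 (95% interval -2.49 to -0.34, edgeR adjusted p = 0.252), with the LK value below 0 and the LSK value above it. Without a filter on low counts, where 24037 genes entered the test, Epor was called (adjusted p = 0.00265).

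In MSC the erythroid genes were close to absent. Hbb-bs, Hbb-bt and Slc4a1 had 0 counts in all 4 libraries, which allows up to 0.0984 to 0.500 CPM at 3 counts, and Rhag had 2 counts in IL-1β replicate 1 and 0 in the others. Car1, Car2, Ermap and Add2 had at most 12 counts in any library. Epor was at 3.50 and 2.18 CPM in PBS replicates 2 and 3 and at 2.36 and 2.21 CPM in IL-1β replicates 1 and 2. The groups overlapped, and the log2 fold change was -0.27 (SE 0.39, edgeR adjusted p = 0.695), where 11.4% of the 13239 genes tested were called. Without PBS replicate 2 it was 0.087.

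Other genes of the erythroid lineage, listed by function, showed the same direction in LK cells. Of 20 erythroid progenitor genes, all tested, 13 were called lower with IL-1β and none higher, with a median log2 fold change of -0.88. The largest falls were those of Gfi1b, a repressor needed for erythroid and megakaryocyte maturation, from 166 to 62.0 CPM in the mean (-1.42, SE 0.22, edgeR adjusted p = 0.0113), and of Zfpm1, the partner of GATA1, from 441 to 197 CPM (-1.16, SE 0.12, edgeR adjusted p = 0.00198). Gata1 and Klf1, which were picked after their values were seen, were at 205 to 234 and 285 to 390 CPM with PBS and at 108 to 131 and 136 to 165 CPM with IL-1β. Both were called lower (-0.88, SE 0.12, edgeR adjusted p = 0.00481 for Gata1 and -1.13, SE 0.16, edgeR adjusted p = 0.00554 for Klf1). Without LK IL-1β replicate 1 none of the 20 was called, without IL-1β replicate 2 the count was 7, and in the joint fit it was 5.

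Of 19 tested genes of the red cell membrane and skeleton, 2 were called lower and 1 higher in LK cells, and 18 had negative values. The water channel gene Aqp1 fell from 1046 to 455 CPM (-1.20, SE 0.14, edgeR adjusted p = 0.00305) and Ank1, which encodes ankyrin, from 300 to 153 CPM (-0.97, SE 0.16, edgeR adjusted p = 0.00957). The gene that rose was Slc2a1, a glucose transporter found in many cell types, from 7.19 to 26.0 CPM (1.86, SE 0.33, edgeR adjusted p = 0.0136). Among 9 heme synthesis genes, Alad (-0.75, SE 0.16, edgeR adjusted p = 0.0274) and Urod (-0.74, SE 0.13, edgeR adjusted p = 0.011) fell, while Alas1, the form of the first enzyme that is not particular to red cells, rose from 173 to 437 CPM (1.34, SE 0.24, edgeR adjusted p = 0.0212). Alas1 also rose in LSK cells, from 77.7 to 261 CPM (1.79, SE 0.22, edgeR adjusted p = 0.0121), but with either IL-1β library left out no heme gene was called there. No erythroid progenitor or membrane gene was called in LSK cells by edgeR. DESeq2 called 3 of each list, the replicate block 3 and 2, the joint fit with LK cells 4 and 2, and the fit with no filter on low counts 4 and 1. Without PBS replicate 2 or 3, 3 and 1 progenitor genes were called. Alas2, the erythroid form, was at 5.43, 3.25 and 1.51 CPM with PBS and 2.66 and 3.06 CPM with IL-1β in LK cells. Without LK IL-1β replicate 1 no membrane or heme gene was called in LK cells, and without replicate 2 no heme gene was.

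Genes downstream of the erythropoietin receptor were divided in LK cells. Of 14 tested, 7 were positive and 7 negative, with a median of 0.00, and the kinase gene Pim1 alone was called (0.77, SE 0.13, edgeR adjusted p = 0.00905). Stat5a was lower at an edgeR adjusted p = 0.034, but its log2 fold change of -0.40 (SE 0.095) did not reach the threshold of 0.5. Jak2 was at 79.4 to 84.6 CPM with PBS and 80.4 and 85.4 CPM with IL-1β. Of the relatives of the 9 genes, no carbonic anhydrase other than Car1 and Car2 was called in LK (6 tested) or LSK cells (5 tested), and none of 6 tested Rh, adducin and SLC4 relatives was called in either. Alpha globin genes were low as well. Hba-a1, which has a near-identical copy, was at 100.4, 55.7 and 19.7 CPM with PBS and 28.6 and 34.3 CPM with IL-1β in LK cells, overlapping as Hbb-bt and Slc4a1 did. Hba-a2 was at 4.79, 3.04 and 1.58 CPM with PBS and 1.33 and 1.29 CPM with IL-1β. Its groups did not overlap, but it was not called (-1.25, SE 0.59, edgeR adjusted p = 0.233). Of the other globin genes, embryonic Hba-x had 0 counts in every LSK and LK library, as did Hbb-bh2. Embryonic Hbb-y and Hbb-bh1 had reads in LK cells with PBS, too few to be tested, and 0 counts in the other LSK and LK groups.

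**Figure D5:**
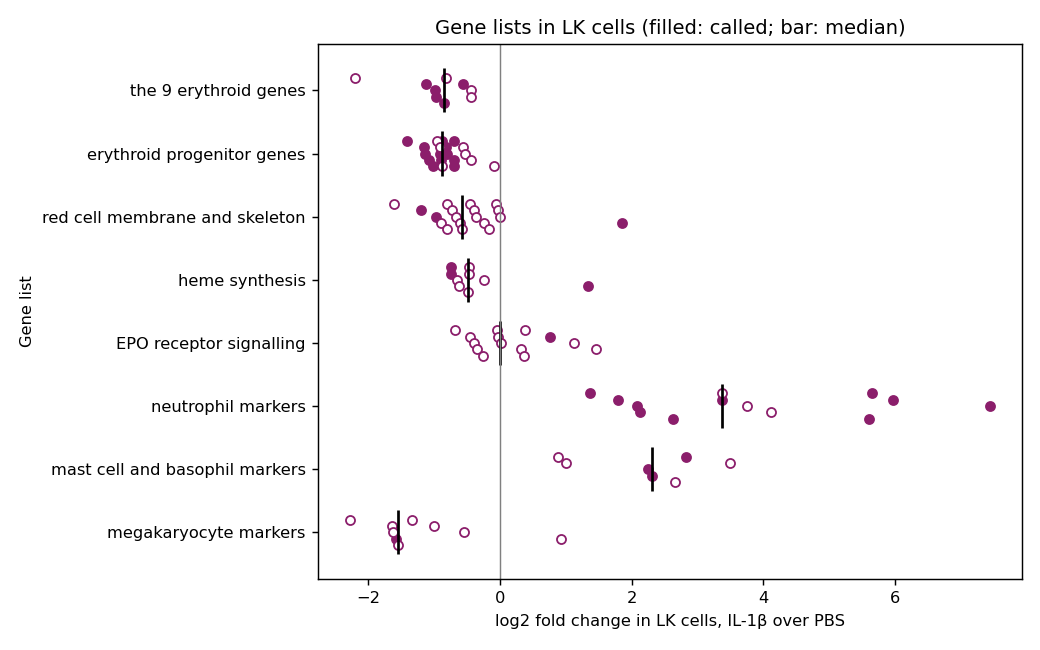
Log2 fold change with IL-1β in LK cells for the tested genes of 8 lists, with 1 point per gene (filled where called) and a bar at the list's median. The 9 erythroid genes and the erythroid progenitor genes lie below 0, at medians of -0.85 and -0.88, whereas the neutrophil markers lie above it, at a median of 3.38.

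Markers of other cell types moved with the same libraries. Of 13 neutrophil markers in LK cells, 10 were called higher with IL-1β, where 869 of the 12835 genes tested were. The markers had a median log2 fold change of 3.38 and the largest rises in Chil3 (7.45, SE 0.79, edgeR adjusted p = 0.0102) and S100a9 (5.97, SE 0.96, edgeR adjusted p = 0.0362). Their summed level was 4536 to 9786 CPM with PBS and 19050 to 22480 CPM with IL-1β, and none was at 0 in every library of a group. Mast cell and basophil markers had a summed level of 153 to 405 CPM with PBS and 1237 to 2376 CPM with IL-1β, with 3 of 7 tested called higher and Tpsb2 at 0 in both IL-1β libraries. Megakaryocyte markers summed to 130 to 197 CPM with PBS and 129 to 245 CPM with IL-1β, and 1 of 9 tested, Vwf, was called lower (-1.58, SE 0.28, edgeR adjusted p = 0.0119). The sum rested on Itga2b, picked after its values were seen, at 80.6 CPM with PBS and 153 CPM with IL-1β in the mean (0.93, SE 0.33, edgeR adjusted p = 0.16). The other 8 log2 fold changes were negative, 6 of them with groups that did not overlap, where 22.4% of all genes were lower without overlap. The median of the 9 markers was -1.54. In LSK cells the neutrophil markers summed to 2211 to 3209 CPM with PBS and 10200 to 12240 CPM with IL-1β, with 5 of 12 called higher. Within LK PBS libraries, replicate 3 had the highest neutrophil sum and the lowest erythroid sum of the controls, at 9786 and 4236 CPM. The part of these other lineages in the lower erythroid levels was not tested. The normalization without neutrophil genes given above is no such test, because it changed the library scaling only and not the mix of cells.

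Between the populations most genes of the other erythroid lists were higher in LK cells, as the 9 were. Under PBS, 18 of 20 erythroid progenitor genes were called higher in LK than in LSK cells, led by Cldn13 (log2 fold change 4.58) and Trim10 (4.56), and Nfe2 (-1.02) and Sox6 were called lower. Of the membrane and skeleton genes 15 of 20 were called higher, led by Rhd (4.84) and Kel (4.26). The 2 called lower were Bcam, at 6.09 CPM in LSK and 0.117 CPM in LK cells in the mean (edgeR adjusted p = 0.00076), and Slc2a1 (-2.19, SE 0.29, edgeR adjusted p = 0.000255). All 9 heme synthesis genes were called higher. Receptor signalling genes went the other way, with 8 of 14 called lower, where 2678 of the 13839 genes tested were. The largest falls were those of Pim2 (-2.57) and Socs3 (-2.56). Of the 14, 1 was called higher, Erfe (4.33), the erythroid hormone gene that restrains hepcidin.

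How alike the 9 genes were across libraries was described on log2 CPM centred within each population, over the 10 LSK and LK libraries. An offset of 0.5 was added to each count before the logarithm. All genes of a library share its depth and its mix of cells. Each gene's Pearson r with the mean of the other 8 was 0.916 for Hbb-bs, 0.907 for Ermap, 0.904 for Add2, 0.836 for Car1, 0.825 for Rhag, 0.818 for Car2 and 0.600 for Epor. Slc4a1 at 0.328 and Hbb-bt at 0.126 went with the others least. Among pairs, Hbb-bs with Ermap had the highest r, at 0.951, and Hbb-bs with its near-identical neighbour Hbb-bt had 0.031. Hbb-bs had 0 counts in IL-1β replicate 1 of LSK cells, so its value there was set by the offset. That value enters each r of Hbb-bs and the mean of the 9, and how far they rest on it was not tested. Of 12255 genes ranked by r with the mean of the 9, the 10 highest were Gpr155 (0.951), Dhrs11 (0.950), Cyhr1 (0.948), Pla2g4c (0.943), Cldn13 (0.940), C2cd4a (0.939), Slc35g1 (0.939), Actr8 (0.934), Gon7 (0.933) and Pklr (0.932). Of these 10, Pklr, which encodes the pyruvate kinase of red cells and liver, was the one called lower with IL-1β in LK cells (-0.82, SE 0.16, edgeR adjusted p = 0.0181). IL-1β replicate 1 of LSK cells, at -1.45 in the centred mean of the 9 genes, was the farthest of the 10 libraries from its population.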

How the data were processed

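The labels gave each library's treatment and replicate number. The authors trimmed reads with fastp 0.20.0, aligned them with HISAT2 2.0.1 to GRCm38 and deposited the raw counts of read pairs on each gene, made with featureCounts 2.0.2 in reverse-stranded mode. By that counter's defaults, pairs matching several places or genes are left out. A further MSC library, named in a header without a column of counts, was not analysed here.

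Counts were filtered with filterByExpr, normalized by TMM and compared with edgeR 4.0.16 (R 4.3.3, glmQLFit with robust estimation, glmQLFTest), within each population for treatment and over the 10 LSK and LK libraries for population and interaction, with Benjamini-Hochberg adjustment over all genes tested. The SE is the log2 fold change divided by the square root of F, and 95% intervals use the degrees of freedom of that test. Printed CPM use factors over the 10 libraries (MSC: its own), so ratios can differ slightly from fitted folds. At 3 counts or fewer a value was taken as at its limit. Nothing in the labels says which libraries share animals beyond the numbers, so p-values measure the spread between libraries.

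Data were simulated with 200 genes changed by a log2 fold change of 2. The test recovered 85.4% of those tested in LK (12437 genes) and 62.4% in LSK (12723 genes). For the difference between the LK and LSK responses it recovered 50%. False calls numbered 11 in LK, 5 in LSK, 22 in MSC and 8 for that difference. Recovery at smaller log2 fold changes, such as the -0.57 to -1.12 of the called erythroid genes in LK cells, was not tested. Symbols were matched for 55141 of 55487 identifiers. Promoters and coding sequences came from RefSeq (GRCm38.p6) and GENCODE, and binomial intervals from scipy. Alternatives were DESeq2 1.42.0, limma-voom (limma 3.58.1), other size factors, filters and thresholds, thinning, a joint fit, the replicate block and each library left out. A fit with beta globin counts summed was chosen after seeing the data.

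The 9 genes and the lists were chosen with earlier results of these data known. Named beside the 9 were, per list and comparison, at most the 2 largest called rises and falls, and the 10 genes most like the 9. Marker genes of the sort, the cultures and the lineage (Ly6a, Col1a1, Csf1r, Lepr, Klf1, Gata1, Tfrc, Jak2, Stat5a, Alas2, Hba-a1, Hba-a2, Hba-x, Hbb-y, Hbb-bh1, Hbb-bh2, Tpsb2, Itga2b) were named in addition.

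Same-numbered LSK and LK PBS libraries correlated at 0.271, 0.141 and 0.524 in their deviations from the group mean. Differently numbered ones correlated at -0.417 to 0.194, so the matched values were not all higher. Same-numbered IL-1β libraries correlated at 0.091 and those of different treatments at -0.085 to 0.085. The main fits paired no libraries. The replicate block, an alternative, paired LSK and LK libraries by number under both treatments, and in the treatment comparisons it grouped libraries by number.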

Additional observations from a re-analysis of the deposited data

How the results depend on the processing

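Of the 9 erythroid genes, the count called lower with IL-1β in LK cells was 5, and it was 1 in the joint fit with LSK cells and 0 to 8 when a library was left out. In LSK cells the count was 0, and it was 1 (Car2) with DESeq2, with no filter on low counts and in the joint fit. For the difference between responses it was 0, and 1 with no filter. LK over LSK counts under PBS were 7 to 9 and under IL-1β 4 to 7 with a library left out, where a lone library is assumed to vary like the other groups.

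With the replicate number as a block, which pairs no animals between treatments, 8 genes were called in LK and 1 (Car2) in LSK cells. For LK over LSK cells the block changed Slc4a1, as given above, and under IL-1β the count was 7. In MSC no paired analysis was possible because the treatments share only 1 replicate number.

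Signs turned at values that were not called. In LSK cells Car1 was 0.00, and it was -0.43 with limma-voom, -0.028 with no filter, -0.21 with the block, -0.036 in the joint fit and -0.044 after thinning. Rhag was -0.35 with limma-voom, and Hbb-bs was 0.29 with beta globin counts summed. In LK cells Slc4a1 was 0.25 with limma-voom. With a library left out, LSK values ran from -1.40 to 0.71 for Car1, -1.17 to 0.98 for Rhag, -0.073 to 0.93 for Epor, -2.83 to 0.15 for Ermap and -1.75 to 0.37 for Add2. The same ranges were -0.91 to 0.79 for Slc4a1 in LK cells, -0.60 to 0.087 for Epor in MSC and -0.17 to 1.61 for Hbb-bt in LK over LSK cells under IL-1β. The causes were not tested.

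Among LSK and LK cells the IL-1β groups had 2 libraries each, all with fewer read pairs than any PBS library, which limits Slc4a1 and the globins in LSK cells.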
